A study of Mus musculus with 6 samples.

Results

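The 39 genes described here encode the Arf and Arl GTPases of mouse, the proteins that switch them on and off, and the Arf-binding proteins Arfip1 and Arfip2. They were taken as a list of gene names by family and role, and the rule uses no measured value, although the list was drawn up with earlier results of these data known. Each gene was read by its brightest probe set, the one with the highest mean over the 6 arrays among those annotated to that gene alone. By this rule 29 of the 39 genes were read, out of 18193 genes read on the array, and their other probe sets were listed as well. Arl4a, Arl4c, Arl4d, Arl5a, Arl5b, Arl6, Arl8a, Arl8b, Arl10 and Arl13b had no probe set of their own in the annotation used and were not analysed here. All 6 samples were MC3T3-E1 cells, a clonal pre-osteoblast line from mouse calvaria (subclone 4 in the methods), which lays down a collagen matrix when ascorbic acid (AA) is supplied. The 3 control cultures received no AA, and the 3 AA cultures received AA at a labelled dose of 50 µg (per ml in the methods) for 5 days. The RNA of each culture went onto a separate array, the Affymetrix Mouse Genome 430 2.0. The methods mention both 6-well plates in triplicate and triplicate experiments, so the p-values measure the spread between these cultures, which may be technical. The comparison asks which Arf and Arl genes differed in mRNA level between AA-treated cells, a model of procollagen export, and control cells.

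Arf proteins are small GTPases that bind Golgi, endosome or plasma membranes when loaded with GTP and there recruit vesicle coats, lipid enzymes and tethers. Exchange factors (GEFs) load them with GTP, and GTPase activating proteins (GAPs) make them hydrolyse it, which lets the coat come off. Class I and class II Arfs work mainly at the Golgi, where they recruit the COPI coat for retrograde transport and adaptors for post-Golgi carriers. The class III member Arf6 works at the plasma membrane and endosomes. The Arf-like (Arl) proteins share the fold and have separate tasks in tethering, microtubule assembly, cilia and lysosome movement.

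The arrays had been scaled to a trimmed mean of 150, which fixes the overall level. Their medians ran from 14.9 to 17.7 on the deposited linear scale. Control replicate 3 had the highest ratio of 3' to 5' control probe sets for both Gapdh (0.920, against 0.791 to 0.809 on the other arrays) and actin (1.79, against 1.35 to 1.45). A higher ratio is a sign of less intact RNA. Of 12 osteoblast markers listed, Spp1, Runx2 and Bglap were not read. Of the 9 read, 5 were higher in AA (Alpl, Ibsp, Pth1r, Ifitm5 and Dlx5), while Col1a1 (0.11), Col1a2 (0.04), Sp7 (0.29) and Phex (-0.56, below the median signal) did not pass. All 9 summed to 16888 to 20561 on the control arrays and 23294 to 32148 on the AA arrays, of which Col1a1 and Col1a2 made 13049 to 14883 and 13967 to 17675. Of 6 macrophage markers, Csf1r alone was higher (24.5 ± 0.572 to 87.4 ± 15.0, SD, n = 3), while Ptprc, Adgre1 and Itgam averaged under 7 and Cd68 under 14 in both groups. Lyz2, at 378 ± 40.2 in control and 324 ± 24.9 in AA (-0.18, limma adjusted p = 0.496), made most of the macrophage sum of 376 to 470 in control and 403 to 468 in AA. Of 4 chondrocyte markers, Col2a1 alone was higher (138 ± 26.8 to 306 ± 56.5, SD, n = 3), Acan and Matn1 averaged under 10 in both groups, and the summed signal was 322 to 391 in control and 425 to 526 in AA. Sox9 was at 220.4 ± 47.4 in control and 169 ± 4.68 in AA, a difference of -0.33 that did not pass (limma adjusted p = 0.283). None of the 4 endothelial, 3 adipocyte and 4 myoblast markers read passed the test or had an unadjusted p under 0.05 in limma, with sums of at most 31.8, 12.3 and 65.5 on any array. The part that a change in cell state or in cell numbers plays in the results below was not tested, and in bulk RNA fewer cells of a type and less RNA per cell cannot be told apart.

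Of the 29 Arf, Arl and regulator genes read, 3 were higher in AA and 0 lower at an adjusted p under 0.05 (limma, blocked by replicate number, Benjamini-Hochberg over all 45037 probe sets). The 3 genes were Arfgap1 and Arfgap3, GAPs that act on Arf at the Golgi, and Arfip2 (arfaptin 2), which binds GTP-loaded Arl1 and Arf1 at the trans-Golgi. They make 10.3% of the genes read, against 4.07% of all genes called higher and 3.85% called lower. Among the 10822 genes above the median signal, where 28 of the 29 lie, 723 were higher and 684 lower. At an unadjusted p under 0.05, 11 members were higher (37.9%, against 10.7% of all genes) and 3 lower (10.3%, against 12.9%). These shares are not on a like base, since 28 of the 29 members but 10822 of 18193 genes lie above the median signal. No count above the median was made at this threshold. Under a moderation that does not follow the signal, and under the methods' paired t-test, no probe set of the array passed after adjustment (3 and 0 members, and 9 and 1 members, were higher and lower at an unadjusted p under 0.05). The median log2 fold change of the 29 genes was 0.14, against -0.02 over all genes and -0.03 over the genes above the median signal.

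The shift was small in most members. It was above 0 in 21 genes and below 0 in 8, or 18 and 11 after median centring, which moved the median of all genes to -0.07 and that of the members to 0.05. Over all 18193 genes, without median centring, 8663 lay above 0 and 9530 below. Signals below are printed as deposited, whereas fold changes and the counts of separated groups rest on quantile-normalized signals and need not equal the ratio of the printed means. The 3 AA cultures all lay above the 3 control cultures in 11 genes (37.9%, against 13.0% of all genes) and all below in 3 (10.3%, against 15.1%). Replicate by replicate, 14 genes were higher in AA in all 3 pairs (48.3%, against 20.3% of all genes) and 4 were lower in all 3 (13.8%, against 23.8%). Among the 10822 genes above the median signal, the groups were apart in 1952 (higher) and 2337 (lower). In all 3 pairs, 2702 of those genes were higher and 3344 lower. A further 3 genes, Arf1, Arf4 and Arl1, had a dimmer probe set that was higher in AA while the brightest did not pass. With these, 6 of 29 genes (20.7%) had any probe set higher, against 4.75% of all genes. The shares are not on a like base, since more probe sets give a gene more chances of a call. The members had 76 probe sets for 29 genes, and the array 34945 for 18193 genes. Counted by probe set, 7 of 76 (9.21%) were higher and 0 lower, against 2.71% of all probe sets called higher, and 52 of the 76 had a fold change above 0. At an unadjusted p under 0.05 in limma, 17 of the 76 were higher and 8 lower, against 3864 and 4236 of all 45037 probe sets.

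**Figure D1:**
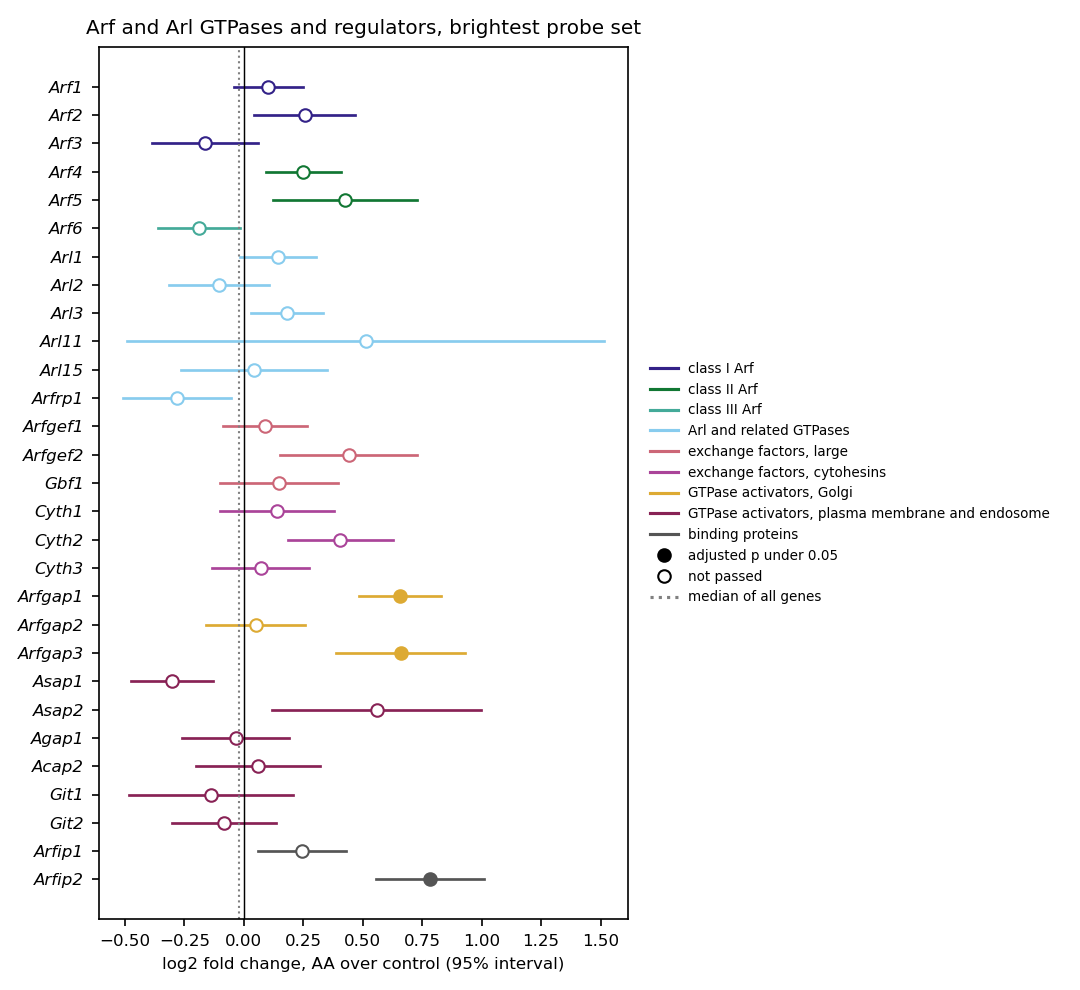
Log2 fold change, AA over control, of the 29 Arf, Arl and regulator genes by their brightest probe set, with 95% intervals from the limma fit (3 control and 3 AA cultures). Filled points passed an adjusted p of 0.05 (Arfgap1, Arfgap3 and Arfip2), open points did not, colours mark the role of the protein and the dotted line is the median of all genes at -0.02.

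Transcription factors of the secretory pathway bind short elements near the start sites of their targets. The promoter windows of RefSeq (GRCm38.p6, 250 bases before to 50 after a start) were therefore searched on both strands for 4 motifs, as a description of the sequence. A window was given for 25 of the 29 genes read, and not for Arf6, Arfgef1, Asap1 and Asap2. The Golgi stress element ACGTGGC occurred in 5 of the 25 genes (20%), against 3.95% of the 14452 array genes with a window. The stretches of 27 bases around it are given here as read along the gene, because Arf1 and Arfip2 are among the 6 genes with a probe set higher in AA. Capitals mark the element, which reads ACGTGGC or, on the other strand, GCCACGT.
Arf1: gcaggcgctgACGTGGCtgccgtcagc
Arfip2: tttctctgcgACGTGGCcggcttcttc
Arfip1: caccatagagACGTGGCggggcccggg
Arf5: gaggggcgggGCCACGTgacgtcgggc
Arl3: gctccggccaGCCACGTgggcggcttt

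The Arf1 stretch lies at chr11:59228228-59228254 on the minus strand, with the first letter of the element at base 24 counted from the first listed start and 82 bases before the second. The Arfip2 stretch lies at chr7:105640371-105640397 on the minus strand, with the element at base 30 from the start. The other three lie upstream of their starts, Arfip1 by 120 bases (chr3:84582729-84582755, minus strand), Arf5 by 71 (chr6:28423523-28423549, plus strand) and Arl3 by 131 (chr19:46573297-46573323, minus strand). In Arf1 the element overlaps the core TGACGTG of the unfolded protein response element, and in Arf5 and Arl3 it overlaps the E-box CACGTG. The TGACGTG core was found in 3 of the 25 genes (12%, Arf1, Arfrp1 and Gbf1, against 2.84% of array genes), the E-box in 5 (20%, against 10.2%) and the CRE TGACGTCA in 0 (against 2.92%). The members' windows were richer in G and C, with a median of 66.7% against 58.3% over the array genes. No ACGTGGC was found in the windows of Arfgap1, Arfgap3, Arf4 or Arl1, the other four genes with a probe set higher in AA.

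The class I Arfs, which recruit COPI and adaptor coats to Golgi membranes, are encoded by Arf1, Arf2 and Arf3. None of the 3 passed on its brightest probe set. For Arf1 this probe set (1426390_a_at) gave signals of 5355, 4708 and 5012 in control and 6256, 5939.8 and 5208 in AA cultures. The log2 fold change was 0.10 (95% interval -0.04 to 0.25) with a limma adjusted p of 0.460. The groups overlapped in these deposited signals, since AA replicate 3 lay below control replicate 1, but were apart after normalization. A dimmer probe set of Arf1 (1420920_a_at) gave 1268, 1086 and 725 in control and 1716.5, 1597 and 1529 in AA. All AA cultures lay above all controls there, and the difference was 0.67 (SE 0.13, limma adjusted p = 0.0218). This difference was widest in the pair holding control replicate 3, the array with the highest 3' to 5' ratios, and the part of RNA integrity in it was not tested. Without that array and without the block it was 0.43 (limma adjusted p = 0.0414), and with all arrays and no block the adjusted p was 0.0649. The remaining Arf1 probe set averaged 4.18 in control and 5.64 in AA, near the bottom of the scale.

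Arf2 gave 279, 291 and 216 in control and 329, 320.2 and 266 in AA, so the groups overlapped, although AA was higher within each pair. Its difference was 0.26 (limma adjusted p = 0.184). Arf3 tended the other way, with 951, 1020.3 and 824 in control and 811, 799.6 and 863 in AA, a difference of -0.16 (adjusted p = 0.440). Its second probe set, at 695, 732 and 791 against 607, 561 and 569, had all AA cultures below all controls, with a difference of -0.33 (SE 0.09) and an adjusted p of 0.0731. The probe sets of Arf1 and Arf3 described here that carry the ending _a_at match several transcripts of the same gene.

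Class II holds Arf4 and Arf5, which act between the endoplasmic reticulum, the intermediate compartment and the Golgi. Arf4 was among the 3 members nearest the threshold without passing. Its brightest probe set (1423052_at) gave 2725.5, 2723 and 2789 in control and 3690.5, 3499.9 and 3139 in AA. The 3 AA signals were all higher, and the difference was 0.25 (SE 0.07, limma adjusted p = 0.0865). The next probe set of Arf4 (1423053_at) gave 708, 776 and 776 in control and 1212, 1166 and 1126 in AA. The groups were far apart here relative to the spread within them, with a difference of 0.63 (SE 0.08, limma adjusted p = 0.00437). Another probe set (1439367_x_at) gave 0.94 (adjusted p = 0.0597), and the dimmest (1434074_x_at) averaged below 4 in both groups. All 4 probe sets of Arf4 had every AA culture above every control after normalization, and 3 of them also in the deposited signals. Probe sets ending in _x_at may also match other genes, as may those ending in _s_at, by which Arl1, Arfrp1, Gbf1 and Arfip1 were read. For Arf5 the signals were 518, 538 and 701 in control and 839, 788 and 694 in AA. The groups overlapped through control replicate 3, and the difference was 0.42 (SE 0.13, limma adjusted p = 0.124). Without replicate 3 it was 0.64 (adjusted p = 0.00413), and without control replicate 3 and the block 0.56 (adjusted p = 0.0260).

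**Figure D2:**
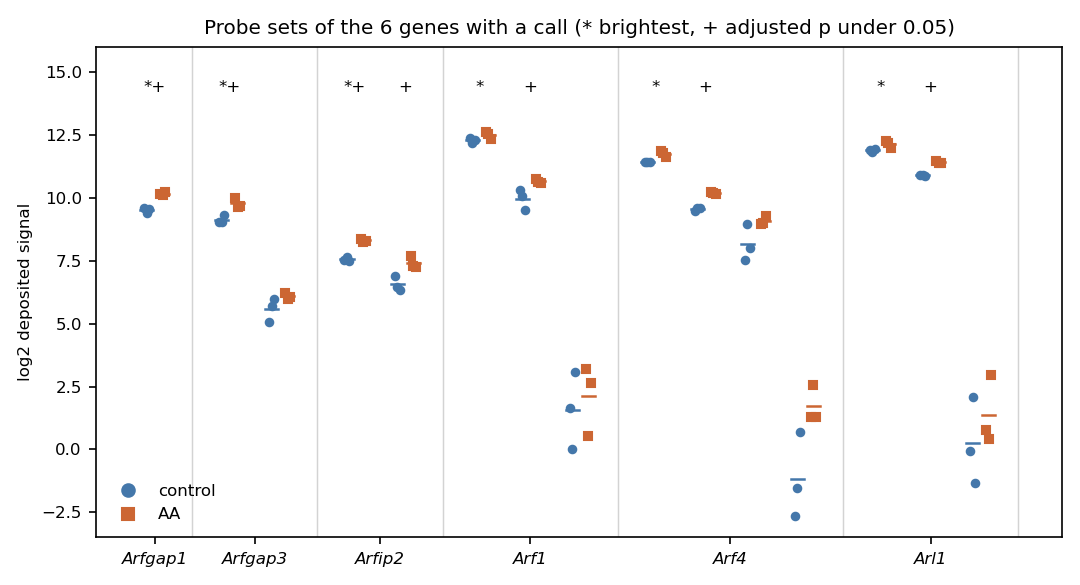
Deposited signal, as log2, on the 6 arrays for every probe set of the 6 genes with a probe set higher in AA, ordered from brightest to dimmest within a gene. Circles are control and squares AA cultures, short lines are group means, a star marks the brightest probe set and a plus sign an adjusted p under 0.05. Heights of different probe sets are not comparable as amounts of mRNA, and in Arf1, Arf4 and Arl1 the plus sign stands over the second probe set only.

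Arf6, the class III Arf of the plasma membrane and recycling endosomes, gave 1513, 1704 and 1539 in control and 1419, 1416 and 1411 in AA. All 3 AA cultures were below all controls and close to each other (SD 4.47, n = 3). The difference of -0.19 did not pass (limma adjusted p = 0.236), and the other 3 Arf6 probe sets, at -0.12, 0.07 and 0.29, overlapped between groups.

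Among the Arl proteins, Arl1 recruits GRIP-domain golgins and arfaptins to the trans-Golgi. Its brightest probe set (1447090_s_at) gave 3881, 3625 and 3950.3 in control and 4929, 4689 and 4082 in AA, a difference of 0.14 (95% interval -0.01 to 0.30, limma adjusted p = 0.328). The second probe set (1451025_at) gave 1941, 1938 and 1864 in control and 2795, 2711 and 2705 in AA. Both probe sets had every AA culture above every control, and the second passed with a difference of 0.46 (SE 0.07, limma adjusted p = 0.00965). After median centring its adjusted p was 0.0787. Arfrp1, a relative that brings Arl1 to the Golgi, went the other way, with 349, 312 and 312 in control and 246, 266 and 269 in AA. That difference of -0.28 did not pass (adjusted p = 0.176), although the groups were apart, and its 3 other probe sets gave -0.03, -0.36 and -0.05.

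Arl3, which with GTP releases lipidated cargo in cilia, gave 2176, 2170.3 and 2315 in control and 2603, 2716 and 2579 in AA. The AA cultures were all higher, by 0.18 on the log2 scale, with an adjusted p of 0.192. Arl2, a regulator of tubulin folding, was at -0.10 (adjusted p = 0.629) and Arl15 at 0.04 (adjusted p = 0.921), with groups that overlapped after normalization in both. Arl11 was the only member below the median signal, at 7.70 ± 3.04 in control and 11.0 ± 1.93 in AA (SD, n = 3), and its interval of -0.49 to 1.51 leaves its direction unresolved.

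The 6 exchange factors had fold changes above 0, with Cyth3 at -0.02 after median centring and Gbf1 at -0.68 as the mean of its probe sets. That mean includes a Gbf1 probe set at -3.31 near the bottom of the scale (6.15 in control, 0.802 in AA). The other dimmer probe sets of Gbf1 were at 0.03, -0.03 and -0.23. None of the 6 passed, and 2 had an unadjusted p under 0.05 in limma. Cyth2 (cytohesin 2, or ARNO), which activates Arf6 and Arf1 at the plasma membrane, was the member nearest the threshold. It gave 265, 266 and 258 in control and 375, 324 and 321 in AA, so the lowest AA culture exceeded the highest control by far more than the controls differed. The difference was 0.40 (SE 0.10, limma adjusted p = 0.0523), and the adjusted p was 0.0490 without the replicate block. Arfgef2 (BIG2), a large exchange factor of the trans-Golgi and endosomes, gave 323, 362 and 369 in control and 554, 408 and 439.9 in AA. Here too the groups were apart, with a difference of 0.44 (SE 0.12) and an adjusted p of 0.0949.

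Arfgef1 (BIG1), its paralog, changed little, from 590.2, 585 and 593 to 617, 619 and 609, a difference of 0.09 (95% interval -0.09 to 0.27, adjusted p = 0.629). Gbf1, the large exchange factor of the cis-Golgi, gave 349, 403 and 465 in control and 437, 445 and 423 in AA. Its groups overlapped, with a difference of 0.15 (interval -0.10 to 0.40, adjusted p = 0.552). Cyth1 and Cyth3, the other cytohesins, were at 0.14 (adjusted p = 0.561) and 0.07 (adjusted p = 0.760). The differences between paralogs were not tested.

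Of the 3 GAPs of the Golgi, 2 were higher in AA. Arfgap1, which senses the curvature of COPI buds and stimulates GTP hydrolysis on Arf1, was read by a single probe set (1427245_at). Its signals were 774, 676 and 747 in control cultures and 1152, 1114 and 1192 in AA cultures. The groups were wide apart, at 732 ± 50.3 and 1152.5 ± 38.9 (SD, n = 3), a rise of 0.66 on the log2 scale (95% interval 0.49 to 0.83, limma adjusted p = 0.00267) or 1.58-fold. Leaving out any array or pair of arrays left the rise between 0.60 and 0.70, past the threshold each time.

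Arfgap3, which together with Arfgap2 binds the coatomer directly, gave 523, 533 and 641 in control and 1032, 807 and 817 in AA (1426534_a_at). Every AA culture was above every control, at 565.5 ± 65.9 and 885 ± 127 (SD, n = 3), a rise of 0.66 (95% interval 0.39 to 0.93, limma adjusted p = 0.0178). The call was less firm than that of Arfgap1. Without replicate 2 the adjusted p was 0.0623, without control replicate 2 and the block 0.0685, and with 50 added to every signal 0.0524, while the difference stayed at 0.68, 0.62 and 0.62. A dimmer second probe set was at 0.51 (adjusted p = 0.290). Arfgap2, the near relative of Arfgap3, gave 799.9, 708 and 690.3 in control and 711, 765 and 779 in AA. Its groups overlapped, and the interval of its difference, -0.16 to 0.26 around 0.05, lies below the intervals of Arfgap1 and Arfgap3, although the difference between the genes was not tested. Its 3 other probe sets were at -0.06, -0.18 and -0.50, and none passed.

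The GAPs of the plasma membrane and endosomes were mixed, with 2 of 6 fold changes above 0 and 4 below. Asap1, an Arf GAP of focal adhesions and podosomes, was at 943, 945 and 979 in control and 733, 759 and 832 in AA. All AA cultures were lower, and the difference of -0.30 (SE 0.08) missed the threshold (limma adjusted p = 0.0626). A second Asap1 probe set was also lower in every AA culture, at -0.21 (adjusted p = 0.205). Asap2 gave 144, 135 and 188 in control and 305, 189.6 and 186 in AA. AA replicate 1 stood well above the rest, and the difference of 0.56 had an adjusted p of 0.165. It was 0.27 without replicate 1, and 0.84 (adjusted p = 0.0111) without replicate 3. Agap1 (-0.04), Acap2 (0.06), Git1 (-0.14) and Git2 (-0.08) all overlapped between groups, with adjusted p from 0.713 to 0.907.

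The arfaptins are crescent-shaped BAR-domain proteins that bind GTP-loaded Arl1 and Arf1 and are found on trans-Golgi carriers. Arfip2 had the largest log2 fold change of the 29 genes. On its brightest probe set (1424240_at) it gave 187, 202 and 180.0 in control and 332, 306 and 315 in AA. The spread within groups was small against this gap, at 189.6 ± 11.2 and 318 ± 13.2 (SD, n = 3), a rise of 0.78 (95% interval 0.56 to 1.01, limma adjusted p = 0.00400) or 1.72-fold. Its second probe set (1435498_at) gave 118, 88.3 and 81.0 in control and 209, 156 and 153.9 in AA. Again all AA cultures were higher, with a rise of 0.88 (SE 0.11, limma adjusted p = 0.00448). Arfip1, whose promoter also holds the ACGTGGC element, gave 1188.0, 1125 and 1001 in control and 1395, 1245 and 1307 in AA. The groups were apart, but the difference of 0.24 (95% interval 0.06 to 0.43) did not pass (adjusted p = 0.150).

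**Figure D3:**
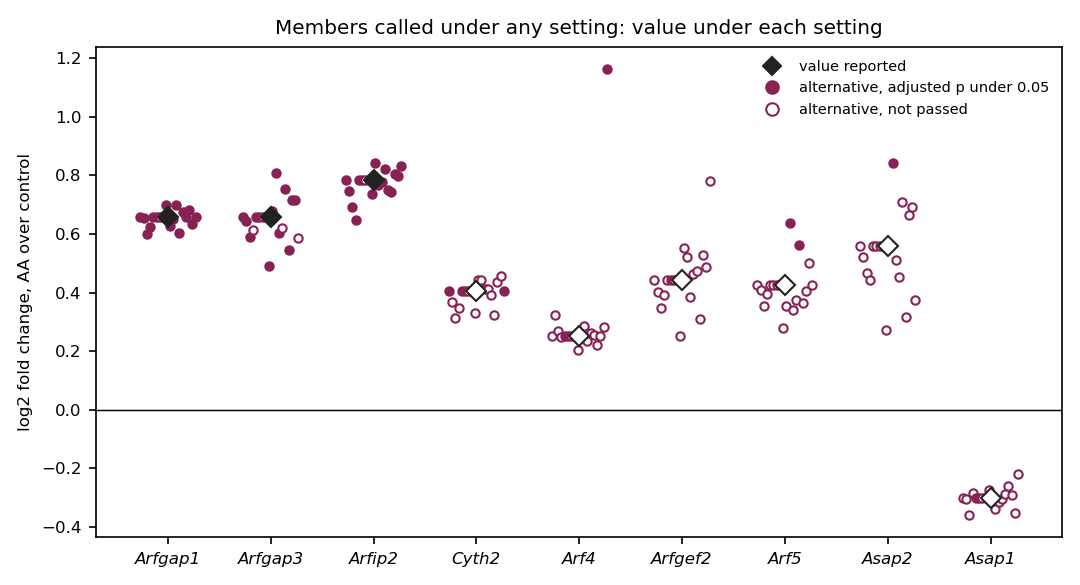
Log2 fold change, AA over control, of 9 members. Each passed an adjusted p of 0.05 in at least 1 setting that reads its brightest probe set or its probe-set mean. Diamonds are the values given in the text, filled points are alternatives with an adjusted p under 0.05 and open points alternatives that did not pass. Arfgap1 and Arfip2 are filled in nearly all settings, whereas Asap1 is the only gene of the 9 below 0.

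Genes of the Arf cycle beyond the 39 were counted in the same way. Of 34 further GTPases, exchange factors, GAPs and partners read, 3 were higher in AA and 0 lower in limma (6 and 2 at an unadjusted p under 0.05), with a median log2 fold change of 0.15. The share higher was 8.82%, against 4.07% of all genes, and after median centring 2 were higher and 1 (Agfg2) lower. Among the 3 that were higher in limma, Sar1a had the widest difference. Sar1a, the GTPase that starts COPII coat assembly at the endoplasmic reticulum, rose by 0.90 (1336 ± 39.5 to 2573 ± 67.9, SD, n = 3, limma adjusted p = 6.02e-04). Psd3 (an EFA6-type Arf6 exchange factor) rose by 0.74 (adjusted p = 0.00770) and Fbxo8, an F-box protein with a Sec7 domain, by 0.45 (adjusted p = 0.0416), a call lost after median centring, with 50 added to every signal and without any 1 of the 3 replicates. Sar1b, the paralog of Sar1a, was at 0.15 (adjusted p = 0.318).

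Of 60 effector genes read, 11 were higher (18.3%, against 4.07% of all genes) and 1 lower (1.67%, against 3.85%). The number higher was 2 after median centring and 2 without replicate 2 (Ap1s2 and Copb2 both times), 4 without replicate 1 and 6 with 50 added to every signal. The COPI coat, which Arf1 recruits and whose release Arfgap1 to Arfgap3 promote, held 7 of the 11, with 7 of its 9 genes higher and a median of 0.38. The highest were Copb2 (0.61, limma adjusted p = 0.00459), Copz2 (0.50, adjusted p = 0.00677) and Copb1 (0.40, adjusted p = 0.0208). Arcn1 (0.23) and Copg2 (-0.22) did not pass. The median lay between 0.34 and 0.43 in the settings run for this list, whereas the number higher was 1 after median centring, 1 without replicate 2, 2 without replicate 1 and 4 with 50 added to every signal.

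Of the 21 adaptor genes (Ap1, Ap3, Ap4 and Gga), whose complexes Arf1 brings to the trans-Golgi and endosomes, 4 were higher and 0 lower in limma. The share higher was 19.0%, against 4.07% of all genes. At an unadjusted p under 0.05 in limma, 6 were higher and 1 lower (against 10.7% and 12.9% of all genes). The 4 were Ap1s2 (0.84, limma adjusted p = 0.00249), Ap4s1 (0.54, adjusted p = 0.0144), Ap3m1 (0.45, adjusted p = 0.0265) and Gga2 (0.49, adjusted p = 0.0284). After median centring and without replicate 2, Ap1s2 alone of these stayed higher, and without replicate 1 or with 50 added Ap1s2 and Ap4s1. After median centring Ap3m2 was lower. The median of the 21 was 0.09. Pip5k1a, a lipid kinase stimulated by Arf6, was the 1 effector gene that was lower, at -0.45 (adjusted p = 0.0402), and this call was lost without replicate 2, without replicate 3 and with 50 added. None of the 4 GRIP golgins bound by Arl1, the 3 carriers bound by Arl2 and Arl3, the 7 Arl8 effector and BORC genes or the 7 BBSome genes passed in limma, with medians of 0.04, 0.14, -0.11 and -0.05. At an unadjusted p under 0.05, Golga4 and Bbs5 were higher and Snapin was lower among them, named after their values were seen.

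**Figure D4:**
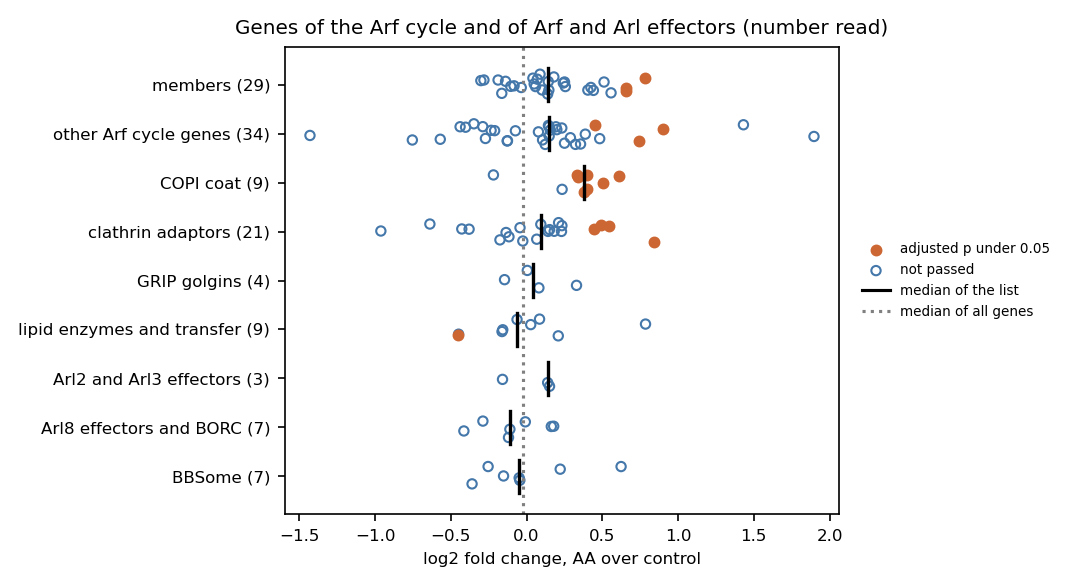
Change in AA cultures, as log2 fold over control, of each gene in the list of members, of other Arf cycle genes and of 7 groups of Arf and Arl effectors, with the number of genes read in brackets. Filled points passed an adjusted p of 0.05, black bars are list medians and the dotted line is the median of all genes at -0.02. The COPI coat has the highest median, at 0.38, and the members a median of 0.14. The group labelled clathrin adaptors also holds the Ap4 genes, which encode a non-clathrin adaptor.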

How the data were processed

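MC3T3-E1 cultures, 3 control and 3 given AA, were measured on 6 arrays (Affymetrix Mouse Genome 430 2.0). Deposited were linear intensity values, made by the authors with MAS5 (version not given in the sources used here) and scaled to a trimmed mean of 150 with 2% left off at each end. They carry no detection calls and were not quantile-normalized, unlike the values of the paper's methods. The number of arrays limits the precision.

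After 64 of 45101 probe sets were set aside as controls, log2 signals of 45037 were quantile-normalized and fitted with limma 3.58.1 in R 4.3.3, with the replicate number as a block, since paired tests are named in the methods, and with variances moderated along the signal (2 residual and 6.18 prior degrees of freedom). The Benjamini-Hochberg adjustment ran over all probe sets, at a threshold of 0.05. In GEO's platform annotation, 34945 probe sets carry 1 gene, 932 several and 9160 none, and RefSeq's table (GRCm38.p6) changed 0 symbols.

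The members and the other lists were chosen with earlier results of these data known. Named are members that passed on any probe set, Arf1 to Arf6, the exchange factors, the 3 members nearest the threshold, up to 4 genes per direction of other lists and, as ranges or fold changes, all other members. The fit was tested on simulated data. Alternatives were no replicate block, signals as deposited, median centring, 50 added, 2 signal filters, no trend, the methods' t-test and thresholds, the mean or any probe set of a gene, arrays left out and, chosen after seeing the data, probe sets with a plain name only.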

Additional observations from a re-analysis of the deposited data

How the results depend on the processing

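Of the members' log2 fold changes under the alternatives, 473 kept their direction and side of the threshold, 13 passed the threshold anew, 10 lost it and 23 changed sign, none of these in a gene that had passed. Against 3 members higher and 0 lower, there were 5 and 1 among probe sets above the median signal (adding Arf4, Cyth2 and, lower, Asap1), 6 and 1 in the upper quartile (adding Arfgef2), 6 higher by any probe set, and 2 to 5 higher when an array or a pair was left out. Without replicate 2, without control replicate 2 and the block, with 50 added or with probe sets averaged, Arfgap3 was lost, and without replicate 3 Arf5 and Asap2 were added. With plain-named probe sets only, Arfgap3 was lost as well (0.51, limma adjusted p = 0.290), and Arl1 was added (0.46, adjusted p = 0.00965). Over all probe sets, 1219 were higher and 1124 lower. With 50 added these were 788 and 655, by the methods' t-test at an unadjusted p under 0.01 706 and 736, and with arrays left out 380 to 1169 and 339 to 994. After adjustment 0 probe sets and 0 members were higher and 0 lower without the trend (2587 and 2616 probe sets at an unadjusted p under 0.05) and by the paired t-test (2612 and 2827). The cause was not tested.

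Without the replicate block, 4 members were higher (adding Cyth2) and 0 lower, and over all probe sets 1089 and 1039. Deviations of same-numbered cultures correlated across probe sets at 0.18, 0.03 and 0.09, and those of differently numbered cultures at -0.14 to 0.05. Whether the numbers pair the cultures is not settled by these values.

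With all probe sets of a gene averaged, the sign turned in Arf3 (0.0015), Arf6 (0.015), Arl2 (0.37), Arfgap2 (-0.17), Gbf1 (-0.68), Agap1 (0.28) and Git2 (0.048), and with median centring in Arl15 (-0.032), Arfgap2 (-0.016) and Cyth3 (-0.017). The averages include probe sets near the bottom of the scale, as in Gbf1 (6.15 in control, 0.802 in AA) and Arl2 (6.01 and 8.28). With arrays left out, Arl15 ran from -0.016 to 0.14, Arfgap2 from -0.018 to 0.15, Cyth3 from -0.016 to 0.12, Agap1 from -0.12 to 0.052, Acap2 from -0.089 to 0.21 and Git1 from -0.34 to 0.033.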
